A study of Mus musculus with 12 samples.

Results

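Aminoacyl-tRNA synthetases are the enzymes that join each amino acid to its transfer RNA (tRNA) before translation. The 35 genes described here were chosen by name: 20 that encode the cytosolic enzymes or their subunits, and 15 whose symbols end in 2 and that encode the enzymes of the mitochondrial matrix. Lars2, the mitochondrial leucine enzyme, was excluded by that rule. All 35 were found among the 56980 genes of the count table by their older symbols, and all 35 were among the 16648 genes with enough counts to be tested. The cells were NIH/3T3, an immortalised fibroblast line from mouse embryos, of wild-type genotype per the labels. Every library came from cells grown in medium with 10% fetal bovine serum and treated for 8 h, and polyadenylated RNA was sequenced. The 4 groups of 3 libraries were vehicle (DMSO), carfilzomib at 200 nM (CFZ), doxorubicin at 5 µM (DOX), and carfilzomib at 200 nM together with doxorubicin at 5 µM (CFZ-DOX). Carfilzomib blocks the proteasome irreversibly. Doxorubicin, an anthracycline, inserts between DNA bases and traps topoisomerase II on DNA. Whether the replicates came from separate cultures is not stated in the labels, so a p-value here measures the spread between these libraries only, which may be technical. In bulk RNA, fewer cells and less RNA per cell cannot be told apart.

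Cytosolic and mitochondrial translation use separate sets of synthetases, all of them encoded in the nucleus. Part of the cytosolic set (the enzymes for arginine, aspartate, glutamate and proline, glutamine, isoleucine, leucine, lysine and methionine) is held in the multisynthetase complex by the scaffold proteins of Aimp1, Aimp2 and Eef1e1. Many cytosolic synthetase genes are known targets of ATF4, the transcription factor of the amino acid response, which binds composite C/EBP-ATF response elements near their start sites. Eprs encodes a fused enzyme for glutamate and proline, and Gars and Kars each encode the glycine or lysine enzyme of both compartments.

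The C/EBP-ATF element was searched for in the promoter windows of the members, because it is the known regulatory sequence of the cytosolic set. RefSeq windows (GRCm38.p6, 250 bases before to 50 after the start site) were found for 13 of 20 cytosolic and 13 of 15 mitochondrial members. Cars, Hars, Lars, Nars, Rars, Vars, Wars, Hars2 and Pars2 had no window. The motif TGATGNAA, on either strand, was present in the windows of 5 of the 13 cytosolic members (38.5%), in 0 of the 13 mitochondrial members, and in 4.51% of the 27025 genes with a window. The 30 bases around the match are shown for 4 of these 5 genes, on the strand of the match and with the match in capitals, because the genes recur in the results below. Positions are on GRCm38.p6, with the strand of the match.
Gars, chr6:55037960-55037989, minus strand: cgcccggtgcaTGATGAAAtagcgcagcca
Iars, chr13:49682126-49682155, minus strand: gcgtctggaggTGATGCAAtactgacagtg
Tars, chr15:11399655-11399684, plus strand: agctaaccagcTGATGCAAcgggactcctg
Yars, chr4:129189895-129189924, plus strand: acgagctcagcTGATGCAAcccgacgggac

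For 4 further motifs searched on both strands, genes with a match were counted. The NRF-1 core GCGCATGC was in 3 of 13 mitochondrial genes (Rars2, Vars2 and Wars2, 23.1%), in 0 of 13 cytosolic genes, and in 3.05% of all genes. The E box CACGTG was in 4 of 13 cytosolic genes and 1 of 13 mitochondrial genes, against 8.09% of all genes. The ETS core CCGGAAGT was in 2 and 1 of 13 (4.31% of all genes), and the heat shock element core GAANNTTC in 1 and 0 of 13 (9.04% of all genes). A match is a run of letters and not evidence of binding, and the absence of a match says nothing beyond these windows.

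The libraries held 28278879 to 42033993 counts. DOX 3 and CFZ-DOX 3 stood apart from the other 2 libraries of their groups in the cytosolic synthetases: these genes summed to 4643 CPM (counts relative to library size, with TMM factors) in DOX 3 against 6169 and 6461, and to 4257 in CFZ-DOX 3 against 5945 and 6628. Counts of called synthetase genes that moved by over 1.5 times without these libraries are given without them as well. Ribosomal protein genes took 3.81 to 4.29% of counts with DMSO and CFZ, 6.54 to 7.09% with DOX and 9.78 to 10.4% with CFZ-DOX, so the scaling of the libraries bears on every value with doxorubicin. Under scaling by these ribosomal genes the median log2 change of all genes was −0.73 for DOX, −1.56 for CFZ-DOX against DMSO and −1.46 against CFZ, where TMM gave 0.14, 0.09 and 0.09. Fibroblast markers (6 genes) summed to 18808 to 22082 CPM with DMSO, 11081 to 15383 with CFZ, 22095 to 42677 with DOX and 29045 to 63097 with CFZ-DOX, while 14 markers of other cell types summed to 19.6 to 34.7 CPM in any library. Col1a1, Col1a2 and Vim made up most of the first sum, and Pdgfrb went from 160 to 231 CPM with DMSO to 33.6 to 55.5 with CFZ, 59.3 to 102 with DOX and 42.4 to 60.3 with CFZ-DOX. Tubb3 made up most of the second sum (14.2 to 27.3 CPM in any library) except in CFZ-DOX 3, where it was 14.2 of 32.3 CPM. Of the other markers in that list, Cd68 (macrophages) rose with DOX (log2 1.58) and CFZ-DOX (3.30, from 0.896 to 1.33 CPM with DMSO to 10.3 to 13.3), and Pecam1 (endothelium) rose with both (3.76 and 3.80, to at most 2.48 CPM). Cdh1 (epithelium) fell with CFZ (−2.47), DOX (−1.09) and CFZ-DOX (−2.71), from at most 3.24 CPM. The part of these shifts in the synthetase results was not tested.

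The balance between cytosolic and mitochondrial synthetase transcripts was higher with every treatment than with DMSO. The cytosolic genes summed to 5044, 5918 and 5775 CPM in DMSO 1 to 3 and to 6789, 7425 and 7200 with CFZ, and these groups did not overlap. With DOX and CFZ-DOX the cytosolic sums spanned the range of DMSO. The mitochondrial genes summed to 293, 319 and 305 CPM with DMSO, 272, 287 and 278 with CFZ, 217, 232 and 224 with DOX, and 205, 210 and 208 with CFZ-DOX. The sums with DOX and CFZ-DOX lay below all DMSO and CFZ libraries.

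The ratio of cytosolic to mitochondrial counts does not depend on the scaling of a library. It was 18.2 ± 0.893 for the DMSO libraries, 25.6 ± 0.507 for CFZ, 25.6 ± 4.30 for DOX and 27.0 ± 5.79 for CFZ-DOX (SD, n = 3, not corrected for gene length). All 9 treated libraries (20.5 to 31.5) lay above all 3 DMSO libraries (17.2 to 18.9), and the lowest treated values were those of CFZ-DOX 3 and DOX 3 (20.5 and 20.7). Without DOX 3 and CFZ-DOX 3 the means were 28.1 for DOX and 30.3 for CFZ-DOX. No test was run on this ratio. With Eprs, Gars and Kars left out of the cytosolic sum, the ratios were 14.2, 20.3, 18.7 and 20.02 in the same order of groups.

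**Figure D1:**
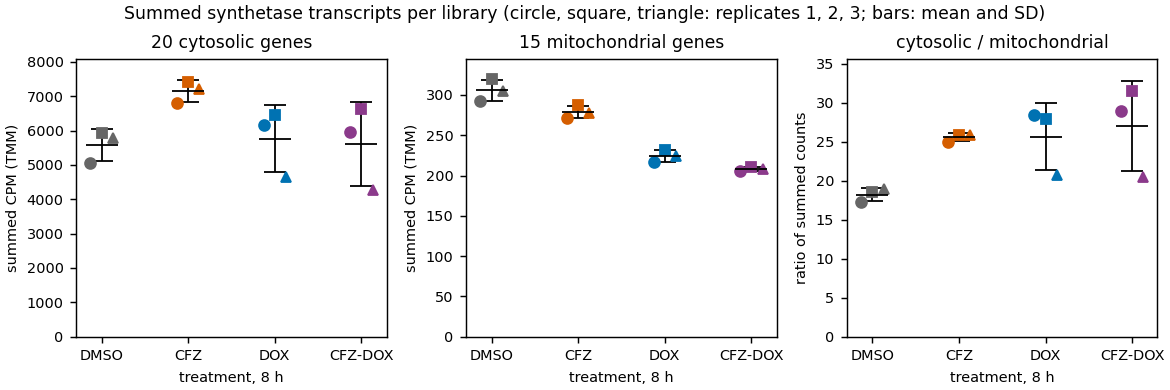
Summed CPM of the 20 cytosolic genes, summed CPM of the 15 mitochondrial genes and the ratio of their counts in each of 12 libraries, by treatment, with mean and SD. The cytosolic sum is highest with CFZ (6789 to 7425), the mitochondrial sum lowest with CFZ-DOX (205 to 210), and DOX 3 and CFZ-DOX 3 (triangles) lie below their groups in the cytosolic sum and the ratio.

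Per kilobase of exon, the cytosolic genes ranged with DMSO from a mean of 15.9 CPM (Qars) to 180 (Gars), and the mitochondrial genes from 1.38 (Nars2) to 11.4 (Yars2), so the 2 sets did not overlap in level. Exon length here is the union of all annotated exons of a gene, which sets the per-kilobase level.

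Carfilzomib alone raised 4 cytosolic synthetase genes and lowered 2 mitochondrial ones, counts near the shares of all genes. Nars, Wars, Hars and Farsa, the enzymes for asparagine, tryptophan and histidine and the alpha subunit of the phenylalanine enzyme, were higher than with DMSO. Iars2 and Vars2, the mitochondrial isoleucine and valine enzymes, were lower. Thus 4 of 20 cytosolic genes were called higher and 0 lower, and 0 of 15 mitochondrial genes higher and 2 lower, where 14.4% of all genes tested were called higher and 14.4% lower (adjusted p under 0.05 in the quasi-likelihood test of edgeR, by Benjamini-Hochberg). The median log2 fold change was 0.29 over the cytosolic, −0.05 over the mitochondrial and −0.01 over all genes, and 16 of 20 cytosolic and 7 of 15 mitochondrial genes had a positive value. By unadjusted p under 0.05 in edgeR 0 cytosolic genes were lower and 1 mitochondrial gene higher, where 20.1% of all genes were lower and 19.1% higher, and DESeq2 called 0 and 1 (15.3% and 16%).

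Nars stood at 555, 664 and 664 CPM in DMSO 1 to 3 and at 1040, 1135 and 1134 in CFZ 1 to 3. The CFZ libraries lay well above the DMSO libraries, and the gene rose 1.76-fold (log2 fold change 0.81, SE 0.21, adjusted p = 0.00904). Wars stood at 140, 155 and 155 CPM with DMSO and 225, 247 and 247 with CFZ, again without overlap, a rise of 0.68 on the log2 scale (SE 0.20, adjusted p = 0.0192). Hars went from 104, 113 and 106 CPM to 149, 155 and 151 (log2 0.49, SE 0.15, adjusted p = 0.0230). Farsa went from 93.2, 100 and 90.2 CPM to 124, 132 and 118 (log2 0.40, SE 0.14, adjusted p = 0.0464). In these 4 genes every CFZ library was above every DMSO library. Nars was called in each of the 12 fits that left out 1 library. Wars lost its call without DMSO 1, DMSO 2, DMSO 3, CFZ 2 or CFZ 3, and Hars and Farsa lost theirs without any single DMSO or CFZ library, with log2 values between 0.36 and 0.70 for the 3 genes. Farsa lost its call also without DOX 2 or CFZ-DOX 2 and under ribosomal protein scaling (0.30, adjusted p = 0.073). Hars and Farsa lost theirs under upper-quartile scaling, and with no filter on counts (adjusted p = 0.0871 and 0.2275).

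Iars2 stood at 52.8, 50.3 and 47.7 CPM with DMSO and at 39.0, 32.8 and 29.5 with CFZ. Every CFZ library was below every DMSO library, and the gene fell by 0.57 on the log2 scale (SE 0.17, adjusted p = 0.0235). Vars2 stood at 17.2, 19.6 and 18.9 CPM with DMSO and at 11.8, 14.2 and 12.4 with CFZ (log2 −0.53, SE 0.17, adjusted p = 0.0261), also without overlap. Iars2 lost its call without DMSO 1, DMSO 2, CFZ 2 or CFZ 3 (log2 −0.57 to −0.48), and Vars2 without DMSO 2, DMSO 3, CFZ 1 or CFZ 3 (−0.52 to −0.47).

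The number of cytosolic genes called with CFZ differed with the block and with the libraries in the fit. It was 7 of 20 with the replicate number as a block (17.8% of all genes higher), 8 without DOX 3 and CFZ-DOX 3 (21%), and 12 when the 6 DMSO and CFZ libraries were fitted alone (28.3%). Mitochondrial genes called lower numbered 5 of 15 with the block (19% of all genes lower) and 5 in the 6 libraries alone (28.9%). Iars and Aars, the isoleucine and alanine enzymes, missed the threshold in the fit to all libraries and passed it with the block. Iars stood at 266, 341 and 304 CPM with DMSO and 407, 472 and 454 with CFZ (log2 0.55, SE 0.22, adjusted p = 0.0734, and 0.0046 with the block). Aars stood at 698, 776 and 821 CPM with DMSO and 1068, 1044 and 1023 with CFZ (log2 0.45, SE 0.18, adjusted p = 0.0682, and 0.0277 with the block). Neither gene's groups overlapped. Pars2 and Mars2, the mitochondrial proline and methionine enzymes, had log2 values of −0.64 and −0.61 (adjusted p = 0.0648 and 0.208, and 0.0322 and 0.0461 with the block). Without DOX 3 and CFZ-DOX 3 they were −0.67 and −0.65 (adjusted p = 0.00935 and 0.000217).

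In the fit to all libraries, doxorubicin alone lowered 8 of 15 mitochondrial synthetase genes, and most of the cytosolic set was not called. Of the mitochondrial genes 1 was higher and 8 were lower, where 36.1% of all genes were called higher and 31.3% lower. Of the 20 cytosolic genes 4 were higher, 4 lower and 12 not called, below those shares in both directions. The median log2 fold change was −0.62 over the mitochondrial, 0.05 over the cytosolic and 0.14 over all genes. Called lower in all 5 scalings of the libraries were 7 mitochondrial genes and 1 cytosolic gene, Iars, where 22.3% of all genes were.

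Pars2 showed the largest change of the 35 genes. This gene of 2 exon blocks on chromosome 4 (GRCm39, 106508266 to 106512479, plus strand) stood at 5.86, 7.28 and 6.90 CPM with DMSO and 4.05, 4.80 and 3.98 with CFZ. With DOX it stood at 0.217, 0.214 and 0.369 CPM, and with CFZ-DOX at 0.395, 0.121 and 0.204. The 6 libraries with doxorubicin held only 3 to 14 counts of Pars2 each, against 127 to 317 in the others, so the size of its change is known less well than its direction. It was 24.6-fold lower with DOX than with DMSO (log2 −4.62, SE 0.32, adjusted p = 4.14e-08).

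Wars2, the mitochondrial tryptophan enzyme, stood at 10.97, 12.8 and 12.5 CPM with DMSO and at 4.25, 4.98 and 3.37 with DOX (log2 −1.53, SE 0.18, adjusted p = 4.88e-06). Yars2, the tyrosine enzyme, stood at 31.2, 41.9 and 34.8 CPM with DMSO and at 11.5, 16.7 and 12.9 with DOX (log2 −1.40, SE 0.19, adjusted p = 1.88e-05). Rars2, the arginine enzyme, stood at 17.97, 19.6 and 18.4 CPM with DMSO and at 6.39, 7.79 and 7.80 with DOX (log2 −1.35, SE 0.17, adjusted p = 9.69e-06). In all of these genes each DOX library was below each DMSO library. Nars2 (log2 −1.27), Aars2 (−1.04) and Fars2 (−1.01) fell as well. Vars2 fell by 0.42 on the log2 scale (adjusted p = 0.0359), a call lost without DMSO 2, DMSO 3, DOX 2 or DOX 3 and at −0.27 without DOX 3.

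Cars2, the mitochondrial cysteine enzyme, went the other way. It stood at 14.1, 14.1 and 15 CPM with DMSO, 13.5, 15.4 and 15.4 with CFZ, 27.0, 32.5 and 29.9 with DOX, and 29.5, 31.7 and 32.4 with CFZ-DOX. The libraries with doxorubicin held about the same raised level with and without carfilzomib, and the rise with DOX was 1.05 on the log2 scale (SE 0.13, adjusted p = 1.07e-05). Under ribosomal protein scaling it was 0.19 (adjusted p = 0.428). Cars2 shares 5.83% of its exon bases with Naxd on the opposite strand, which encodes a dehydratase that repairs nicotinamide cofactors and rose by 0.78 (adjusted p = 0.00559), and reads of the 2 genes cannot be told apart if counting ignored strand.

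Among cytosolic genes, doxorubicin raised Kars, Lars, Hars and Qars, the lysine, leucine, histidine and glutamine enzymes, and all 4 had negative log2 values under ribosomal protein scaling. Kars stood at 303, 342 and 342 CPM with DMSO and 514, 535 and 401 with DOX (log2 0.55, SE 0.16, adjusted p = 0.00671). Lars stood at 187, 236 and 230 CPM with DMSO and 357, 335 and 256 with DOX (log2 0.54, SE 0.20, adjusted p = 0.0275). Groups of both genes were apart, with DOX 3 the closest to DMSO. Hars with DOX stood at 161, 157 and 121 CPM (log2 0.44, SE 0.15, adjusted p = 0.0174). Qars stood at 102, 105 and 105 CPM with DMSO and 141, 139 and 129 with DOX (log2 0.38, SE 0.11, adjusted p = 0.00832). Hars and Lars lost their calls without DMSO 1, DMSO 3, DOX 1 or DOX 2.

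Doxorubicin lowered Iars, Cars, Yars and Farsb, the isoleucine, cysteine and tyrosine enzymes and the beta subunit of the phenylalanine enzyme. Iars stood at 101, 169 and 107 CPM in DOX 1 to 3, all below the 266 to 341 CPM of DMSO (log2 −1.27, SE 0.22, adjusted p = 0.000156). Cars went from 153, 195 and 193 CPM with DMSO to 103, 135 and 89.6 with DOX (log2 −0.72, SE 0.18, adjusted p = 0.00237). Yars went from 280, 332 and 327 CPM to 211, 245 and 162 (log2 −0.60, SE 0.18, adjusted p = 0.00903). None of these groups overlapped. Farsb went from 106, 124 and 112 CPM to 85.0, 89.9 and 53.5 (log2 −0.58, SE 0.21, adjusted p = 0.0219). Without DOX 3 the log2 values of Yars and Farsb were −0.36 and −0.28 and neither was called, and Farsb also lost its call without DMSO 2. Under upper-quartile scaling Cars, Yars, Farsb and Vars2 kept negative values (−0.34 to −0.04) and were not called.

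**Figure D2:**
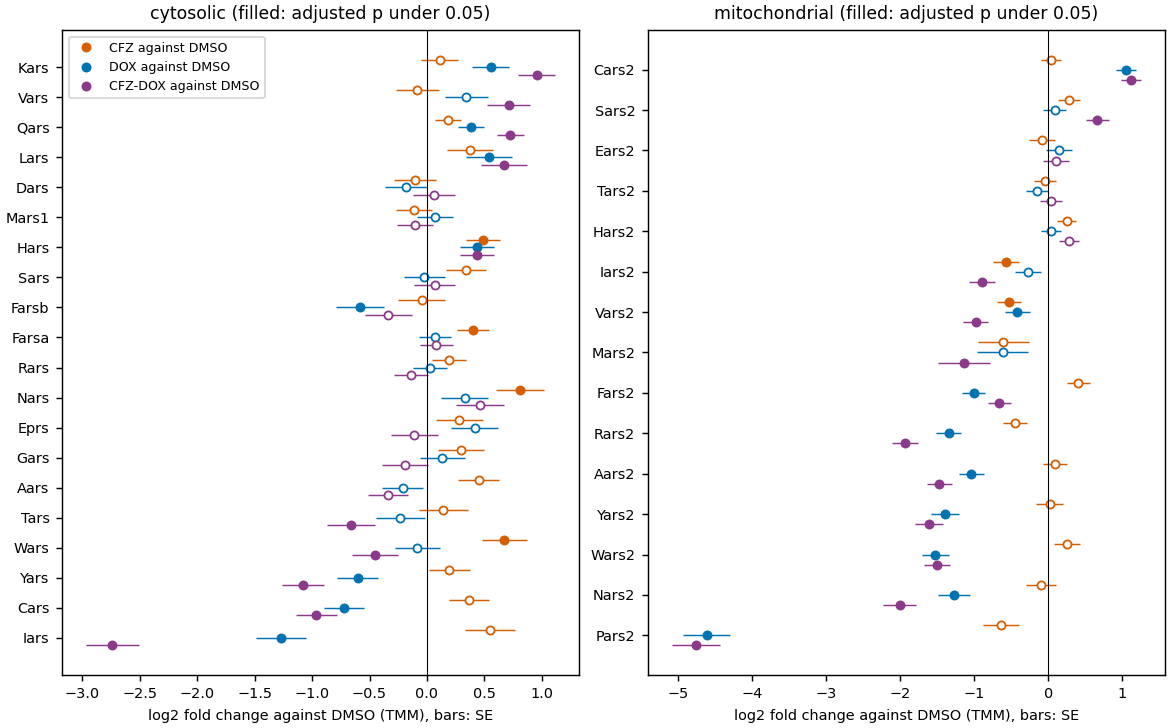
Log2 fold change against DMSO with its SE for each of the 35 genes with CFZ, DOX and CFZ-DOX (TMM scaling); filled points have an adjusted p under 0.05. Pars2 lies lowest with DOX and CFZ-DOX (−4.62 and −4.76), Cars2 highest among mitochondrial genes (1.05 and 1.12), and Iars has a positive value with CFZ (0.55, not called) and negative values with DOX and CFZ-DOX (−1.27 and −2.74).

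With both drugs together, 10 of 15 mitochondrial genes were lower than with DMSO and 2 higher, where 39.3% of all genes were called higher and 35.7% lower. The 10 were called in each of the 12 fits that left out 1 library. Among the 20 cytosolic genes 5 were higher and 5 lower. The median log2 fold change was −0.98 over the mitochondrial, −0.11 over the cytosolic and 0.09 over all genes. In all 5 scalings 7 mitochondrial genes and 3 cytosolic genes (Iars, Cars and Yars) were lower, where 24.8% of all genes were.

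After Pars2 (log2 −4.76, SE 0.33, adjusted p = 2.42e-08), the lowest mitochondrial gene was Nars2, the asparagine enzyme. Nars2 stood at 10.2, 9.97 and 8.65 CPM with DMSO, 2.90, 3.88 and 5.14 with DOX and 2.05, 2.23 and 2.85 with CFZ-DOX (log2 −2.01, SE 0.22, adjusted p = 1.78e-06). Its CFZ-DOX libraries lay below all DOX libraries. Rars2 stood at 4.42, 6.11 and 4.14 CPM with CFZ-DOX (log2 −1.93, SE 0.18, adjusted p = 2.61e-07). Yars2 stood at 10.7, 9.96 and 14.6 CPM with CFZ-DOX (log2 −1.61, SE 0.19, adjusted p = 3.36e-06). Wars2 (−1.505), Aars2 (−1.48), Mars2 (−1.14), Vars2 (−0.98), Iars2 (−0.89) and Fars2 (−0.67) fell too. Mars2 was uneven: it stood at 8.55, 8.74 and 21.9 CPM in CFZ-DOX 1 to 3 and 12.8, 14.1 and 29.4 in DOX 1 to 3, and the 2 libraries that stood apart in the cytosolic sums held the high values. Without them its log2 value with CFZ-DOX was −1.80 (adjusted p = 9.04e-09). Mars2 was then also called lower with DOX (−1.14, adjusted p = 1.28e-06), with CFZ-DOX against CFZ (−1.15, adjusted p = 1.15e-06) and against DOX (−0.66, adjusted p = 0.00314), where the fit to all libraries did not call it.

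Sars2, the mitochondrial serine enzyme, stood at 12.8, 14.03 and 14 CPM with DMSO, 16.5, 17.9 and 15.05 with CFZ, 15.6, 15.9 and 11.8 with DOX, and 23.2, 20.6 and 20.8 with CFZ-DOX. It was the second mitochondrial gene to rise with both drugs, along with Cars2 (log2 0.66, SE 0.15, adjusted p = 0.00128 for Sars2, and 1.12, SE 0.13, adjusted p = 3.75e-06 for Cars2), and both had negative values under ribosomal protein scaling (−0.99 and −0.52). Ears2, Hars2 and Tars2, the glutamate, histidine and threonine enzymes, were called in none of the 6 contrasts.

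Cytosolic genes that rose with both drugs were Kars, Qars, Vars, Lars and Hars, all of them negative under ribosomal protein scaling. Kars reached 685, 713 and 519 CPM (log2 0.96, SE 0.16, adjusted p = 8.08e-05) and Qars 178, 184 and 156 CPM (log2 0.73, SE 0.11, adjusted p = 4.67e-05). Vars, the valine enzyme, stood at 294, 340 and 312 CPM with DMSO and 561, 596 and 391 with CFZ-DOX (log2 0.71, SE 0.19, adjusted p = 0.00338). Lars stood at 397, 406 and 239 CPM with CFZ-DOX (log2 0.67, SE 0.20, adjusted p = 0.00706), where CFZ-DOX 3 lay just above the highest DMSO library. Hars had a log2 value of 0.43 (adjusted p = 0.0163), a call lost without DMSO 1, DMSO 3, CFZ-DOX 1 or CFZ-DOX 2.

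Iars fell furthest of the cytosolic genes with both drugs. It stood at 35.2, 60.2 and 41.2 CPM in CFZ-DOX 1 to 3, below every DOX library, and was 6.68-fold lower than with DMSO (log2 −2.74, SE 0.23, adjusted p = 1.31e-07). Yars stood at 147, 183 and 114 CPM (log2 −1.08, SE 0.18, adjusted p = 9.19e-05) and Cars at 83.9, 113 and 81.1 CPM (log2 −0.96, SE 0.18, adjusted p = 0.000201). Tars, the threonine enzyme, went from 275, 341 and 314 CPM with DMSO to 205, 251 and 133 (log2 −0.66, SE 0.21, adjusted p = 0.0110). None of these groups overlapped DMSO. Wars, at 125, 128 and 76.1 CPM, had a log2 value of −0.45 (adjusted p = 0.0496) that was no longer called without any single DMSO or CFZ library, DOX 2 or CFZ-DOX 3, and was −0.25 without CFZ-DOX 3. Wars was not called by DESeq2 either (−0.35, adjusted p = 0.110). Under upper-quartile scaling Wars was at 0.050, and Tars, Fars2, Iars2 and Mars2 kept negative values that were not called.

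**Figure D3:**
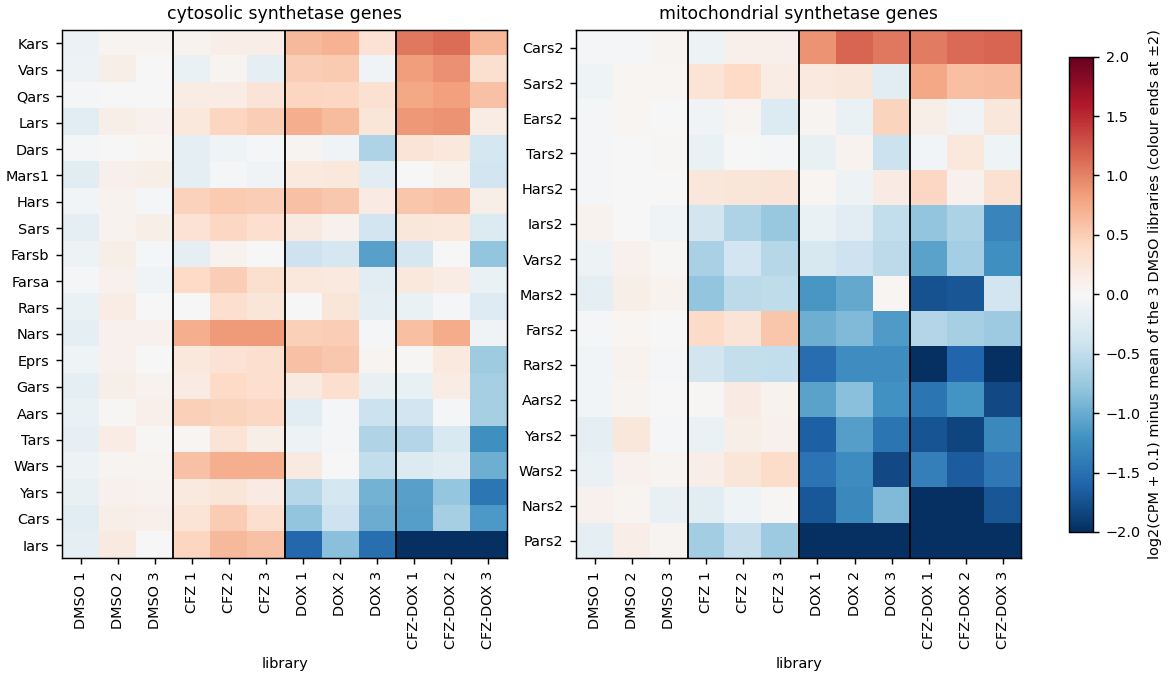
Each cell is 1 gene in 1 library: log2(CPM + 0.1) minus the mean of the 3 DMSO libraries, with genes ordered within each set by their change with CFZ-DOX against CFZ and colours ending at ±2. The lowest rows of the mitochondrial panel are blue in all 6 libraries with doxorubicin, Cars2 is red in the same 6, and Iars turns from red with CFZ to blue with DOX and CFZ-DOX.

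Against carfilzomib alone, adding doxorubicin lowered 7 cytosolic and 8 mitochondrial genes and raised 3 and 2, where 40.4% of all genes were called higher and 36.9% lower. The 7 cytosolic genes were Iars, Cars, Yars, Wars, Tars, Aars and Gars, and all 7 were among the 12 synthetase genes listed as known ATF4 targets. The other 5 of those 12 (Eprs, Lars, Mars1, Nars and Sars) were not called. The 3 higher genes, Kars, Vars and Qars, were outside that list. This split held in the fit to all libraries only. Without DOX 3 and CFZ-DOX 3, Lars of the list (log2 0.48, adjusted p = 0.000899) and Dars outside it (0.31, adjusted p = 0.00391) were called higher too. Rars (−0.30, adjusted p = 0.0325) and Farsa (−0.245, adjusted p = 0.0215), both outside the list, were then called lower. The list was drawn up with results of these data known. In all 5 scalings Iars, Cars, Yars, Wars and 7 mitochondrial genes were lower, where 25.3% of all genes were.

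Iars had its largest difference here, from 407, 472 and 454 CPM with CFZ to 35.2, 60.2 and 41.2 with CFZ-DOX, a 9.76-fold lower level (log2 −3.29, SE 0.24, adjusted p = 2.92e-08). Cars went from 216, 256 and 225 CPM to 83.9, 113 and 81.1 (log2 −1.33, SE 0.18, adjusted p = 1.02e-05). Yars went from 356, 368 and 351 CPM to 147, 183 and 114 (log2 −1.28, SE 0.18, adjusted p = 1.92e-05). Wars, which carfilzomib alone had raised, went from 225, 247 and 247 CPM to 125, 128 and 76.1 (log2 −1.13, SE 0.20, adjusted p = 0.000125). These 4 genes showed no overlap between the groups. Tars (log2 −0.80), Aars (−0.79) and Gars (−0.49) fell by less, and Gars, the glycine enzyme, lost its call without CFZ 2, CFZ 3, DOX 3, CFZ-DOX 1 or CFZ-DOX 3 (−0.30 without CFZ-DOX 3). DESeq2 did not call Gars (−0.40, adjusted p = 0.0621). Under upper-quartile scaling Tars and Aars were not called, and Gars was at 0.068.

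The 5 genes whose promoter windows hold TGATGNAA were Aars, Gars, Iars, Tars and Yars, and all 5 were among the genes lower with CFZ-DOX than with CFZ, with a median log2 value of −0.80. Of the 8 cytosolic genes with a window and no match, 0 were lower and 2 higher, with a median of −0.13. Of the 7 without a window, 2 were lower and 1 higher. Among all genes 36.9% were lower and 40.4% higher in this comparison. The other comparisons did not take all 5 genes. With CFZ 0 of the 5 were called, against 1 of 8 higher without a match and 3 of 7 higher without a window. Among all genes 14.4% were higher and 14.4% lower with CFZ. With DOX 2 of the 5 were lower (31.3% of all genes) and with CFZ-DOX against DMSO 3 (35.7%). Against DOX 1 of the 5 was lower (12%), and in the interaction 1 (11.2%). Of the 8 without a match, 1 was lower with DOX and 0 in those other 3 contrasts. The counts for CFZ-DOX against CFZ depended on the scaling. Under upper-quartile scaling Aars, Gars and Tars were not called, and DESeq2 did not call Gars. Ribosomal protein scaling called all 20 cytosolic genes lower there, with or without a match. Without DOX 3 and CFZ-DOX 3, 2 more genes with a window and no match were called for CFZ-DOX against CFZ. Farsa was lower (−0.245, adjusted p = 0.0215) and Dars higher (0.31, adjusted p = 0.00391). All 5 genes with a match were also on the list of known ATF4 targets, drawn up with results of these data known. The match and the list are thus not separate observations. These counts describe 20 genes and were not tested.

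Kars rose by 0.85 against CFZ (SE 0.16, adjusted p = 0.000219), from 346, 360 and 360 CPM. Vars rose by 0.80 (SE 0.19, adjusted p = 0.00144), from 288, 327 and 276 CPM, and Qars by 0.54 (SE 0.11, adjusted p = 0.000535), from 115, 116 and 124 CPM. All 3 had negative values under ribosomal protein scaling. The lower mitochondrial genes were Pars2 (log2 −4.12), Nars2 (−1.91), Wars2 (−1.75), Yars2 (−1.63), Aars2 (−1.56), Rars2 (−1.48), Fars2 (−1.07) and Vars2 (−0.45), the last of which lost its call without CFZ 2, CFZ-DOX 1 or CFZ-DOX 3 and was at 0.10 under upper-quartile scaling. Cars2 (1.08) and Sars2 (0.38) were higher, and Sars2 lost its call without any single DMSO or CFZ library or CFZ-DOX 1. Both were negative under ribosomal protein scaling.

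**Figure D4:**
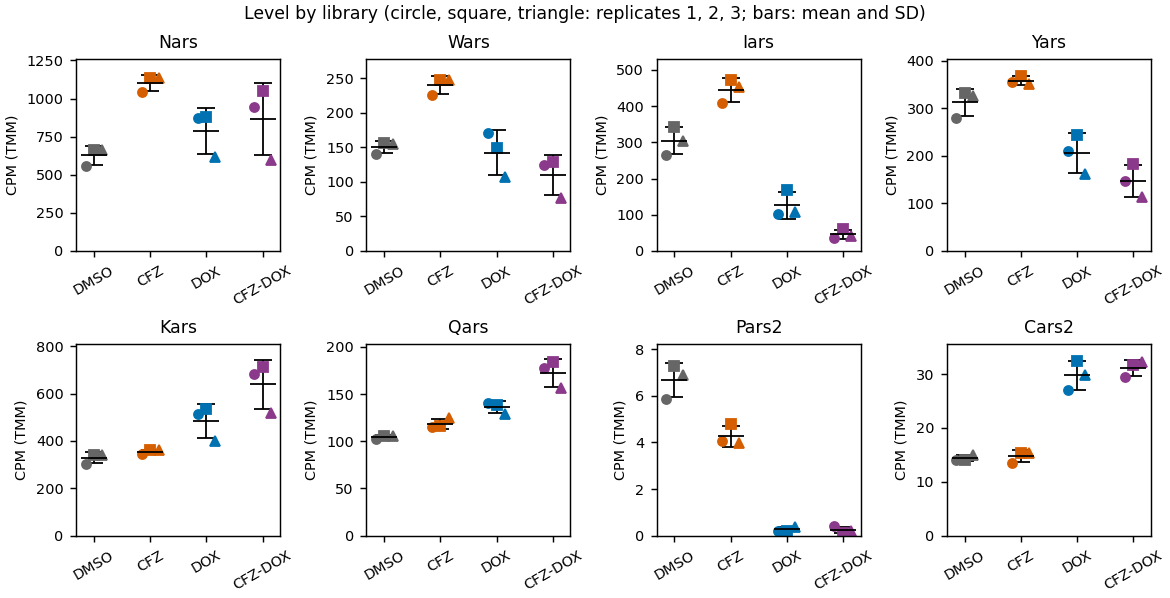
CPM in each library, with mean and SD, of 8 genes by treatment; the vertical axes start at 0. Nars and Wars are highest with CFZ (1040 to 1135 and 225 to 247), Iars and Yars lowest with CFZ-DOX, Kars and Qars highest with CFZ-DOX, Pars2 is near 0 in the 6 libraries with doxorubicin, and Cars2 is raised in the same 6.

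Against doxorubicin alone, adding carfilzomib changed 7 of the 35 genes, 2 cytosolic and 5 mitochondrial. Of 20 cytosolic genes 1 was higher (Qars, log2 0.34, adjusted p = 0.0431) and 1 lower (Iars), and of 15 mitochondrial genes 1 was higher (Sars2, 0.58) and 4 lower, where 10.3% of all genes were called higher and 12% lower. Iars was 2.77-fold lower (log2 −1.47, SE 0.22, adjusted p = 0.000655) and kept this call in all 12 fits that left out 1 library. The 4 mitochondrial genes were Nars2 (−0.74, adjusted p = 0.0295), Iars2 (−0.61, adjusted p = 0.0230), Rars2 (−0.59, adjusted p = 0.0272) and Vars2 (−0.56, adjusted p = 0.0275). Iars2 stood at 45.8, 42.9 and 35.9 CPM with DOX and 29.2, 32.2 and 19.96 with CFZ-DOX, and Vars2 at 14.9, 13.9 and 12.8 and at 8.76, 11.6 and 7.84. Groups of all 4 were apart. Nars2 lost its call without DOX 2, DOX 3, CFZ-DOX 1 or CFZ-DOX 2, Iars2 without DOX 1 or DOX 2, and Rars2 without DOX 2, CFZ-DOX 1 or CFZ-DOX 3 and with DOX 3 and CFZ-DOX 3 both left out (−0.45). Vars2 lost its call without DOX 1, DOX 2, CFZ-DOX 1 or CFZ-DOX 3, Sars2 without DOX 3 or CFZ-DOX 1, and Qars without any single library other than CFZ-DOX 3. Qars and Sars2 were negative under ribosomal protein scaling. When only the 6 DOX and CFZ-DOX libraries were fitted, Iars alone of the 7 genes was called, and under upper-quartile scaling the 4 mitochondrial genes were not called (−0.62 to −0.44). With the replicate number as a block, 2 cytosolic genes were higher and 4 lower (16.1% and 17.1% of all genes).

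The interaction compares the effect of both drugs with the sum of their single effects on the log2 scale. It was negative and called for 2 of 20 cytosolic genes, Iars and Wars, and for 0 of 15 mitochondrial genes, and positive for none, where it was called positive for 8.46% and negative for 11.2% of all genes. Iars was lower with both drugs than the sum of the single effects by 2.02 on the log2 scale (value −2.02, SE 0.31, adjusted p = 0.000688), and Wars by 1.05 (value −1.05, SE 0.28, adjusted p = 0.0178). Both calls held in all 5 scalings. At an unadjusted p under 0.05 in edgeR 9 cytosolic genes and 1 mitochondrial gene were negative and 0 positive, where 18.2% of all genes were negative and 16.5% positive. DESeq2 called 2 and 0 negative, where it called 11.8% of all genes. The median interaction was −0.44 over the cytosolic, −0.03 over the mitochondrial and 0.04 over all genes. Without DOX 3 and CFZ-DOX 3 the cytosolic count was 11 (18.7% of all genes), and with the replicate block it was 9 (16.1%).

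For 15 amino acids the cytosolic and the mitochondrial enzyme could be set against each other within a library, per kilobase of exon, which removes the scaling of the library. Eprs, which joins both glutamate and proline, serves 2 of the pairs. The phenylalanine pair used Farsa alone and not Farsb, the gene of the other subunit. The ratio of group means was higher with CFZ than with DMSO for all 15 pairs, with a median change of 1.31-fold, but in 3 pairs (phenylalanine, serine and tyrosine) the libraries of the groups overlapped. The phenylalanine ratio changed by 1.007-fold only, and its direction holds for Farsa alone. Mean CPM of Farsb was 114 with DMSO and 110 with CFZ, while that of Fars2 was 9.98 and 13.2. It was higher for 11 pairs with DOX (median 1.74-fold) and for 10 with CFZ-DOX (1.68-fold). With DOX 8 pairs lay above all DMSO libraries and 2 below, and with CFZ-DOX 7 above and 4 below. Without DOX 3 and CFZ-DOX 3 the mean was higher for 11 pairs with each (medians of 1.84-fold and 1.83-fold). These are means of 3 libraries with no test.

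The proline pair (Eprs over Pars2) stood at 9.50, 8.57 and 8.53 with DMSO and at 410, 402 and 165 with DOX, a 36.7-fold higher mean ratio at Pars2 counts near 0. The asparagine pair (Nars over Nars2) stood at 87.0, 107 and 123 with DMSO, 203, 202 and 187 with CFZ, and 740, 755 and 334 with CFZ-DOX, with no overlap between these groups. The isoleucine pair (Iars over Iars2) stood at 8.49, 11.4 and 10.7 with DMSO and 17.6, 24.2 and 25.9 with CFZ, and at 3.74, 6.66 and 5.02 with DOX and 2.03, 3.15 and 3.47 with CFZ-DOX. It was the pair with the highest ratio with CFZ relative to DMSO (2.21-fold) and, beside cysteine (0.237-fold), the one with the lowest ratio with CFZ-DOX relative to DMSO (0.282-fold). The cysteine pair (Cars over Cars2) stood at 11.9, 15.2 and 14.2 with DMSO and at 4.21, 4.56 and 3.29 with DOX.

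**Figure D5:**
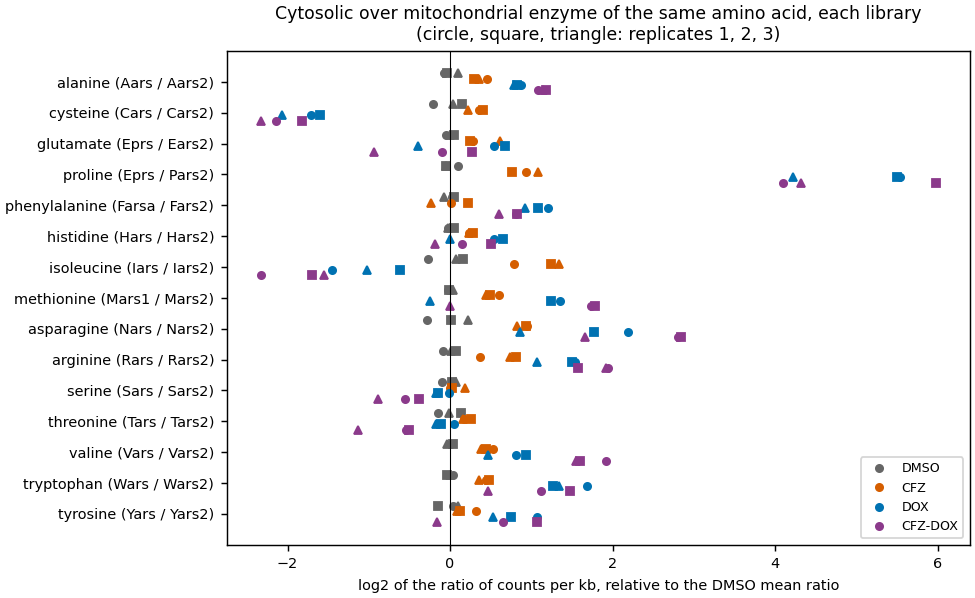
Cytosolic over mitochondrial counts per kilobase for 15 amino acids in each library, as log2 of the ratio relative to the mean ratio of the 3 DMSO libraries. Proline lies far to the right in all 6 libraries with doxorubicin, cysteine and isoleucine to the left in the same 6, and isoleucine to the right with CFZ (2.21-fold by group means).

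Of the 8 enzyme genes of the multisynthetase complex, those called went in both directions. With CFZ 0 of 8 were called by edgeR (14.4% of all genes higher and 14.4% lower) or DESeq2 (16% and 15.3%). At an unadjusted p under 0.05 in edgeR 1 was higher (19.1% of all genes). With DOX, and again with CFZ-DOX against DMSO, 3 of 8 were higher (Kars, Lars and Qars, all negative under ribosomal protein scaling) and 1 lower (Iars), against 36.1% of all genes higher and 31.3% lower with DOX and 39.3% and 35.7% with CFZ-DOX. Dars, Eprs, Mars1 and Rars, the aspartate, glutamate-proline, methionine and arginine enzymes, were called in none of the 6 contrasts in the fit to all libraries. Without DOX 3 and CFZ-DOX 3, Eprs was called in 4 contrasts, Dars in 2 and Rars in 1. Of the 3 scaffold genes, Eef1e1 rose with CFZ (log2 0.42, adjusted p = 0.0380), a call lost without any single DMSO or CFZ library and in 3 other scalings (library size, upper quartile and ribosomal protein genes). It fell with DOX (−0.61, and −0.23 with adjusted p = 0.168 under upper-quartile scaling), with CFZ-DOX against DMSO (−1.12) and against CFZ (−1.54, adjusted p = 3.47e-07). Its interaction was −0.93 (SE 0.20, adjusted p = 0.00626). Aimp2 fell with CFZ (−0.59, adjusted p = 0.0103), without a call when DMSO 2, CFZ 1 or CFZ 3 was left out, and Aimp1 was called in no contrast.

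Atf4 itself stood at 568, 660 and 627 CPM with DMSO and 753, 654 and 590 with CFZ, and these groups overlapped (log2 0.11, SE 0.17, adjusted p = 0.692). With DOX it stood at 53.7, 57.0 and 67.9 CPM and with CFZ-DOX at 79.4, 69.9 and 105. It was lower with DOX than with DMSO (log2 −3.38, SE 0.19, adjusted p = 1.03e-08) and with CFZ-DOX than with CFZ (−2.97, SE 0.18, adjusted p = 8e-09). Messenger RNA levels do not measure ATF4 protein, whose synthesis is known to be regulated in translation.

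Other targets of the amino acid response, 27 genes listed apart from the synthetases, were called higher in 12 and lower in 2 cases with CFZ (14.4% of all genes in each direction), with Atf3 (log2 4.65), Slc7a11 (3.33), the cystine transporter, and Ddit3 (1.95) the highest and Atf5 (−1.19) and Psat1 (−0.60) lower. Psat1 lost its call without DMSO 2, DMSO 3, CFZ 1 or CFZ 3. With DOX 10 were higher and 8 lower, near the shares of all genes (36.1% and 31.3%), with the transcription factor gene Cebpb (−5.04), the pseudokinase gene Trib3 (−3.58) and Chac1 (−3.11), which degrades glutathione, the lowest. With CFZ-DOX against CFZ 5 were higher and 13 lower (40.4% and 36.9% of all genes), among them Chac1 (−4.80), Cebpb (−4.62) and Slc7a11 (−4.60). Atf5 (1.54) and Phgdh (1.49), the first enzyme of serine synthesis, were higher there, and both were slightly negative under ribosomal protein scaling (−0.088 and −0.066).

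Of the 4 genes that complete mitochondrial aminoacylation, Mtfmt, which formylates the initiator methionyl-tRNA, fell with DOX (log2 −1.37, adjusted p = 0.000252). Qrsl1, a subunit of the amidotransferase that makes glutaminyl-tRNA, rose with CFZ (0.52) and fell with DOX (−0.48), and Gatc, another subunit, fell with CFZ (−0.47). With CFZ, Qrsl1 lost its call without DMSO 1, DMSO 2 or CFZ 3, and Gatc without DMSO 2 or any single CFZ library. Both calls were lost as well with library size (adjusted p = 0.196 and 0.0687) and ribosomal protein scaling (0.216 and 0.0822). With DOX, Qrsl1 was at −0.11 under upper-quartile scaling (adjusted p = 0.503) and was not called with no filter (adjusted p = 0.0612). Of 9 mitochondrial translation factors, 2 rose with CFZ (14.4% of all genes), Gfm1 (0.73) and Tufm (0.35, a call lost without any single DMSO, CFZ or DOX library or CFZ-DOX 1 and in 3 other scalings, library size, upper quartile and ribosomal protein genes), both elongation factors. With DOX 3 fell and 1 rose (31.3% and 36.1% of all genes): the initiation factor gene Mtif3 (−2.22) and the release factor gene Mtrf1 (−2.27) were lowest, and Mtrf1l (0.94) rose, at 0.13 under ribosomal protein scaling and without a call with library size (0.86, adjusted p = 0.0636). Sepsecs, which makes selenocysteinyl-tRNA, rose with CFZ (0.69, adjusted p = 0.00437) and fell with DOX (−2.78, adjusted p = 2.12e-08).

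The members lie on many chromosomes and differ in size. The 10 mitochondrial genes lower with CFZ-DOX span 4.21 kb (Pars2) to 608.9 kb (Fars2). Hars and Hars2 start 197 bases apart on opposite strands and share 195 exon bases, and how reads on these shared bases were counted is not known. Hars was called in 3 contrasts and Hars2 in none. Iars2 shares 24.2% of its exon bases with other genes, among them Rab3gap2 on the other strand, which rose with CFZ (0.47, adjusted p = 0.0201) while Iars2 fell. The Rab3gap2 call was lost without CFZ 1, CFZ 3 or any single DMSO library, and under ribosomal protein scaling (adjusted p = 0.0644). Fars2 shares 10.7% with others including Nrn1, which fell with CFZ (−1.98) and with DOX (−0.57, not called under upper-quartile scaling). Rars2 starts 13 bases from Orc3, and both fell with DOX (log2 −1.35 and −0.53), whereas Wars and Wdr25, 543 bases apart, differed: Wdr25 had −1.19 with DOX and Wars −0.08, which was not called. Ears2 starts 88 bases from Ubfd1, which rose with CFZ (1.05, adjusted p = 4.56e-05), and Ears2 was not called.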

How the data were processed

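The values are raw counts that the authors deposited in 1 table, as whole reads for each Ensembl gene in 12 libraries of NIH/3T3 polyadenylated RNA (3 per group, grouped by sample title). The tools named were Trimmomatic 0.39, STAR 2.7.9a and, from Subread 2.0.2, featureCounts, on GRCm39, per the submitters' processing notes. The annotation release and strand setting are not given in the sources used here. Symbols came from an older annotation that matched 52073 IDs (91.4%).

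Library totals were 28278879 to 42033993 counts, and a count of 0 allows up to 3 counts (0.0714 to 0.106 CPM), counting error only. Replicate pairs differed by more than sampling noise (chi-square per degree of freedom 13.8 to 122.8). Genes were filtered with filterByExpr (minimum count 10, minimum total 15) and tested with edgeR 4.0.16 (R 4.3.3; quasi-likelihood F test, robust, TMM, prior count 0.125) in 1 model of all 12 libraries, with Benjamini-Hochberg adjustment over 16648 genes and a threshold of 0.05. The SE is the absolute log2 fold change over the square root of F. Alternatives were 4 other scalings (upper quartile, library size, DESeq2-type size factors and 79 ribosomal protein genes), DESeq2 1.42.0, no filter, the groups compared alone, a replicate block, and leaving out each library. A fit without DOX 3 and CFZ-DOX 3 was added after seeing the data.

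Same-numbered libraries deviated together from their group means to differing degrees. The r across genes was 0.65, 0.54 and 0.58 for DMSO and CFZ, and 0.74, 0.58 and 0.78 for DOX and CFZ-DOX. It was 0.31, 0.39 and 0.17 for DMSO and DOX, and 0.34, 0.28 and 0.22 for CFZ and DOX. For CFZ and CFZ-DOX it was 0.36, 0.11 and 0.12, and for DMSO and CFZ-DOX 0.36, 0.15 and 0.05. The main fit paired no comparison, and the replicate block was an alternative for all of them. No label states a pairing, so the block rests on these correlations alone.

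Any member could be named. Per-library values were given for up to 4 called members with the largest change in each direction, class and comparison, and related genes were named by the same kind of rule, with Aimp1, Aimp2, Eef1e1 and Atf4 always named. Neighbouring and overlapping genes were chosen after their values were seen. The promoter sequence of 1 gene with a match is not reported here. The members and lists were chosen with earlier results of these data known.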

Additional observations from a re-analysis of the deposited data

Results flagged for a closer look

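The effect of carfilzomib on 2 genes differed between cells with and without doxorubicin, by the interaction term of the edgeR quasi-likelihood fit. Iars, the cytosolic isoleucine enzyme, had an interaction of −2.02 (SE 0.31, adjusted p = 0.000688): its log2 change with carfilzomib was 0.55 without doxorubicin, which was not called, and −1.47 with it. Wars, the tryptophan enzyme, had an interaction of −1.05 (SE 0.28, adjusted p = 0.0178). No cause was tested.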

How the results depend on the processing

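Of 118 called values of single genes, 116 kept direction and call with DESeq2, 118 with the replicate block, 113 with DESeq2-type size factors, 105 with library size, 93 with upper quartile, 86 with ribosomal protein scaling, 102 with no filter and 117 without DOX 3 and CFZ-DOX 3. Of 115 that could be refitted in the groups compared alone 104 did. In 88 of 118 the call survived leaving out any single library. The causes of these changes were not tested. The counts below stand without shares of all genes, and the scalings moved all genes. With DOX the median log2 value over all genes was 0.14 with TMM, 0.52 with upper quartile and −0.73 with ribosomal protein scaling. With CFZ-DOX against DMSO it was 0.09, 0.59 and −1.56, and −0.25 with library size. Shifts of the counts between scalings are therefore not to be read as particular to the synthetases. Depth limits Pars2, with 3 to 14 counts in each library with doxorubicin.

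For CFZ against DMSO, cytosolic genes higher (4) numbered 2 with upper quartile, 7 with the block, 12 in the groups alone and 8 without DOX 3 and CFZ-DOX 3. Mitochondrial genes higher (0) numbered 1 with DESeq2, 1 with the block, 3 in the groups alone and 1 without those 2 libraries. Mitochondrial genes lower (2) numbered 4 with upper quartile and with DESeq2, and 5 with the block, in the groups alone and without those 2 libraries. Leaving out single libraries gave 1 to 5, 0 to 1 and 0 to 4.

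For DOX against DMSO, upper quartile gave 11 cytosolic genes higher and 1 lower and 4 mitochondrial genes higher, where TMM gave 4, 4 and 1. Ribosomal protein scaling gave 0 and 20 cytosolic and 0 and 14 mitochondrial genes. Without DOX 3 and CFZ-DOX 3, 7 cytosolic genes were higher. Leaving out single libraries gave 2 to 7 cytosolic genes higher and 2 to 4 lower. Under ribosomal protein scaling the values of Hars, Kars, Lars and Qars turned to −0.45, −0.33, −0.36 and −0.49, and that of Naxd to −0.14.

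For CFZ-DOX against DMSO (cytosolic 5 higher and 5 lower, mitochondrial 2 higher), library size gave 3, 14 and 1, upper quartile 10, 3 and 5, and ribosomal protein scaling 0, 20 and 0. There Hars, Kars, Lars, Qars and Vars turned to −1.23, −0.71, −1.003, −0.93 and −0.96, Cars2, Sars2 and Naxd to −0.52, −0.99 and −0.45. With upper quartile Wars was at 0.050.

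For CFZ-DOX against CFZ (cytosolic 3 higher and 7 lower, mitochondrial 2 higher and 8 lower), upper quartile gave 7, 4 and 5 for the first 3 counts, and ribosomal protein scaling 0, 20, 0 and 14. Library size gave 14 cytosolic genes lower and 1 mitochondrial gene higher, no filter 1 mitochondrial gene higher, and leaving out DOX 3 and CFZ-DOX 3 gave 5 cytosolic genes higher. Single libraries left out gave 1 to 2 mitochondrial genes higher. Under ribosomal protein scaling Kars, Qars and Vars turned to −0.72, −1.02 and −0.78, Cars2 and Sars2 to −0.46 and −1.17, and Atf5 and Phgdh to −0.088 and −0.066. With upper quartile Gars was at 0.068 and Vars2 at 0.10.

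For CFZ-DOX against DOX, cytosolic genes higher (1) numbered 2 with DESeq2-type size factors, upper quartile, DESeq2 and the block, 3 without DOX 3 and CFZ-DOX 3, and 0 with library size, ribosomal scaling, no filter and the groups alone. Cytosolic genes lower (1) numbered 7 with library size, 20 with ribosomal scaling, 3 with no filter, 4 with the block and 5 without those 2 libraries. Mitochondrial genes higher (1) numbered 2 with DESeq2 and 0 with library size, ribosomal scaling, no filter and the groups alone. Mitochondrial genes lower (4) numbered 2 with DESeq2-type size factors, 12 with ribosomal scaling, and 0 with upper quartile and the groups alone. Single libraries left out gave 0 to 3, 1 to 5, 0 to 1 and 0 to 4. Under ribosomal scaling Qars, Sars2 and Atf4 (0.51 with TMM) turned to −0.44, −0.18 and −0.27.

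For the interaction, cytosolic genes lower (2) numbered 10 with library size, 16 with ribosomal scaling, 9 with the block, 11 without DOX 3 and CFZ-DOX 3, and 2 to 7 with single libraries left out. Cytosolic genes higher (0) numbered 2 without those 2 libraries, and mitochondrial genes lower (0) 5 with ribosomal scaling. Without Eprs, Gars and Kars the mean ratios of cytosolic to mitochondrial counts were 14.2 (DMSO), 20.3 (CFZ), 18.7 (DOX) and 20.02 (CFZ-DOX). The replicate block ended no call of a named gene.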
